A study of Homo sapiens with 44 samples.

Results

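RNA of 8 genes for receptors through which nerves and hormones act on the heart was followed while the human embryonic stem cell line H1 was differentiated towards heart muscle. They were taken by name: the β1-, α1A- and α1B-adrenergic receptors (ADRB1, ADRA1A, ADRA1B), the M2 muscarinic acetylcholine receptor (CHRM2), the A1 adenosine receptor (ADORA1), the angiotensin II type 1 receptor (AGTR1), and the endothelin receptors A and B (EDNRA, EDNRB). All 8 were found among the 60499 gene identifiers of the count table, and all 8 were among the 22955 genes with enough counts to be tested. Only 4 of the 8 bind adrenaline, noradrenaline or acetylcholine.

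The 44 libraries are single culture wells of this 1 line, in 12 groups. The pluripotent group grew on the laminin LN-521 alone, and every later group on LN-521 together with LN-221. Day 0 cells were in Nutristem medium. Wells of days 1 and 3 had RPMI 1640 with insulin-free B27 and CHIR99021, which switches on Wnt signalling by blocking the kinase GSK3, and wells of day 5 the same base medium with IWP2, an inhibitor of Wnt production. At days 7 and 9 the insulin-free medium held neither compound, and at days 11, 14, 20, 30 and 90 it was RPMI 1640 with CTS B-27 Supplement. Days 5, 7, 9 and 11 had 5 wells each, and the other groups had 3 (the series text gives 3 wells for day 11, and the sample labels give 5). The deposited sample sheet numbers the wells of a group as biological replicates, without saying whether they came from separate differentiations, so p-values measure the spread between wells only.

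The receptors are G-protein-coupled. β1-adrenergic receptors couple to Gs, raise cyclic AMP and speed and strengthen the heartbeat, while M2 and A1 receptors couple to Gi, lower cyclic AMP and open the potassium channel built from KCNJ3 and KCNJ5. α1-adrenergic, angiotensin II type 1 and endothelin receptors couple to Gq and phospholipase C, and act on vessel tone, contraction and growth. EDNRB also marks migrating neural crest cells and endothelium.

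Total counts ran from 6937136 to 33498022 per library, and a floor of 3 counts corresponds to 0.0919 to 0.410 CPM (counts per 1000000 counts, after TMM scaling between libraries). Floors and intervals cover counting error only. Of the libraries, 2 had fewer than 10000000 counts (day 14 well 2 and day 20 well 2) and 2 had an RNA integrity number under 8 (day 14 well 2 and day 30 well 10). Summed pluripotency markers (POU5F1, NANOG, SOX2 and DNMT3B) went from 4724 to 4976 CPM in the pluripotent wells to 8.83 to 14.9 CPM at day 90. The 7 cardiomyocyte markers summed to 52.9 to 54.5 CPM at day 3, 333 to 697 at day 5, 5393 to 9664 at day 7 and 15442 to 53057 at day 90. In such bulk RNA, fewer cells of a type and less RNA per cell cannot be told apart.

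Promoter bases were available for 6 of the 8 genes in RefSeq (GRCh38.p14), as 9 windows of 250 bases before a transcription start. The windows of CHRM2, the receptor with the largest change in these cells, and of ADRB1, among the 2 lowest from day 7 to day 30, are shown because they contain no annotated exon. Capitals mark every match to 1 of 5 short motifs, searched on both strands. These were the GATA core AGATAA, the NKX2-5 site TNAAGTG, the T-box half-site AGGTGT, the TCF/LEF core CTTTGAT and the E-box CANNTG, which did not overlap in these windows.
CHRM2, chr7:136868402-136868651, plus strand: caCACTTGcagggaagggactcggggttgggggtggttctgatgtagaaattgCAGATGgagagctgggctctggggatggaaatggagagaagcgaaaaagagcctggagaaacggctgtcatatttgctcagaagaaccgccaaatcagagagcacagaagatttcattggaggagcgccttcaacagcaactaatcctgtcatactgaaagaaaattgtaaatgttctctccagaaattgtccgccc
ADRB1, chr10:114043616-114043865, plus strand: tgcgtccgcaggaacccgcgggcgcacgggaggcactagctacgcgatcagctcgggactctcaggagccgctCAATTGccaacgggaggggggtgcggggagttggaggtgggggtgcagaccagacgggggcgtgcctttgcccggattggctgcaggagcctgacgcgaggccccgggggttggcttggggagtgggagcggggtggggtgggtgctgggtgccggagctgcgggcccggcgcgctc
The CHRM2 window was 48.4% G and C with 2 E-box matches, and the ADRB1 window 72.8% with 1. Over all 9 windows, E-box letters were present in 4, T-box letters in 1 and the other 3 motifs in 0. Among 35116 promoter windows of the same length, 61.82% held the E-box letters, 9.568% the T-box, 9.167% the GATA, 8.731% the NKX2-5 and 2.261% the TCF/LEF letters. A match describes letters only.

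**Figure D1:**
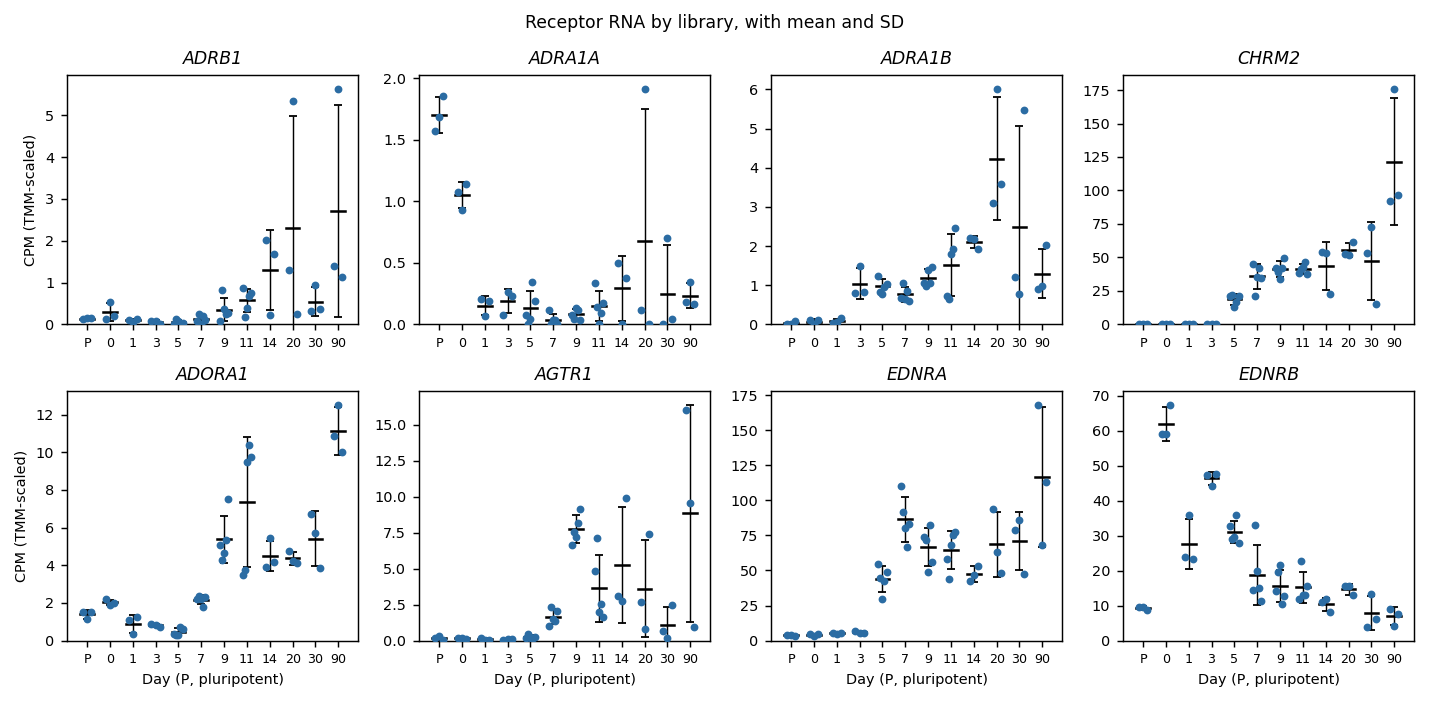
CPM of each receptor gene in every library (points), with the group mean (bar) and SD (whiskers), by day, with P for pluripotent; each panel has its own linear axis from 0. CHRM2 and EDNRA left their low early level between day 3 and day 5, EDNRB was highest at day 0 with 61.8 CPM, and ADRB1 stayed under 6 CPM in every library.

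Over the 11 steps between neighbouring groups, 12 of 88 gene and step pairs were called, that is, with an adjusted p under 0.05 and a change of at least 2-fold; the share over all genes and steps was 5.34%. Of the 12 calls, 10 were rises and 2 were falls, a split not set against that of all genes. Of the 12, 10 fell in the steps up to day 9, where most calls of all genes also lay. In order, those steps called 2.91%, 13.5%, 17.8%, 10.1%, 3.65% and 1.28% of all genes. The later steps called 1.63%, 0.697%, 0.0479%, 2.02% and 5.09%. At least 1 step was called for 6 of the 8 receptors, against 34.8% of all genes, and ADRB1 and ADRA1A were called in none (0 calls also by DESeq2 and limma, with 2 and 1 of their 11 steps at an unadjusted p under 0.05). Day 9 against day 0 had 7 of 8 called, 5 higher and 2 lower (31.7% of all genes, 17.1% higher and 14.6% lower), and day 90 against day 0 had 7, with 6 higher and 1 lower (40% of all genes, 20.8% higher and 19.2% lower). In day 90 against day 9 there were 4 called, 3 higher and 1 lower (23.9%, with 11.9% higher and 12% lower). Of these 4, only the fall of EDNRB was also called with limma on log2(TPM + 0.1). On that scale the median of all genes shifted by -0.54 in this comparison, which works against rises and towards falls. The median log2 change of the 8 was 2.71, 3.67 and 0.93 in these 3 comparisons, in the same order, beside 0.079, 0.059 and -0.019 for all genes.

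**Figure D2:**
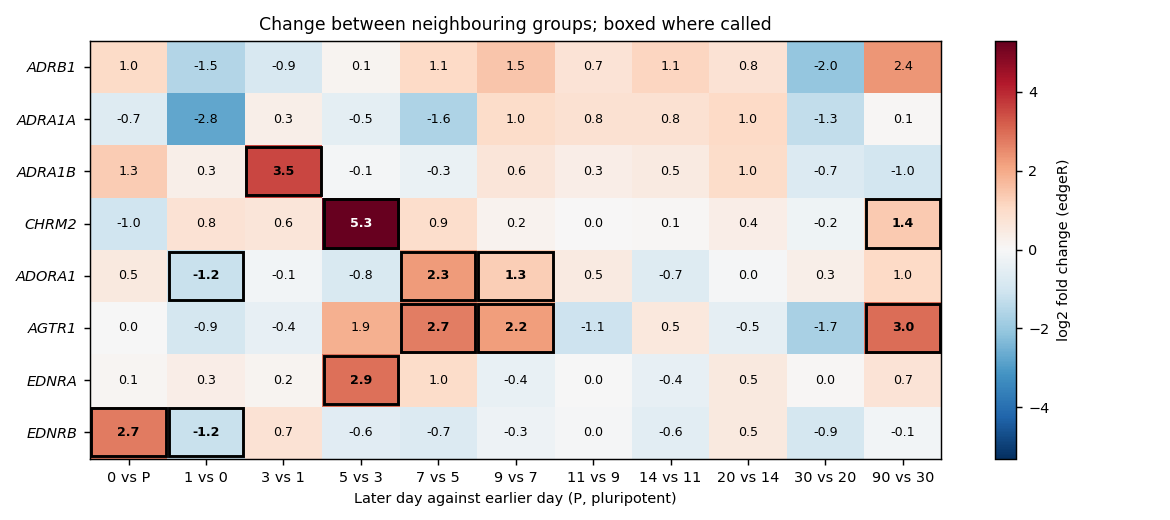
Log2 fold change of each receptor gene between neighbouring groups (colour and number), with called changes boxed. The 12 boxes are spread over 7 of the 11 steps, and the steps from day 9 to day 30 hold none.

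ADRB1, the main β-adrenergic receptor of the adult heart muscle (chromosome 10, 114044056 to 114046908, GRCh38), stayed near the counting floor until day 9 and was higher at day 90. The 3 day 0 wells had 0.134, 0.532 and 0.207 CPM and the 5 day 9 wells 0.0758, 0.813, 0.370, 0.236 and 0.260. These 2 groups overlapped, and their difference of 0.25 on the log2 scale (SE 0.80) was not called (adjusted p = 0.825). At day 90 the wells had 1.39, 5.64 and 1.12 CPM (wells 2, 4 and 5), all above every day 9 well. The rise from day 9 was 2.94 on the log2 scale (SE 0.74, adjusted p = 0.0015), and from day 0 it was 3.19 (SE 0.89, adjusted p = 0.0027). Without day 90 well 4 neither was called, at 1.84 (adjusted p = 0.069) and 2.09 (adjusted p = 0.056). The reads behind these levels were few, with 46 counts in all at day 9 and 132 at day 90.

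Between these days ADRB1 was uneven among wells. The day 14 wells had 2.01, 0.216 and 1.69 CPM, and the day 20 wells 1.30, 5.33 and 0.256. The highest day 20 value came from well 2, the least deeply sequenced library, where it rested on 39 counts. Day 30 was lower again, at 0.326, 0.937 and 0.370 CPM. No step from day 9 to day 90 was called for ADRB1, and in the order of its 12 group means every neighbouring pair overlapped.

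ADRA1A, the α1A-adrenergic receptor (chromosome 8, 26748150 to 26867273, minus strand), ran the other way and was highest before differentiation. Pluripotent wells had 1.57, 1.68 and 1.86 CPM and day 0 wells 1.07, 0.932 and 1.14. By day 9 the 5 wells had 0.0758, 0.0428, 0.135, 0.118 and 0.0325 CPM, from 1 to 4 counts each. The fall from day 0 to day 9 was called (log2 change -3.61, SE 0.99, adjusted p = 0.0027). The ratio of summed counts, 93 at day 0 to 11 at day 9, was 12.9 after scaling, with a 95% counting interval of 6.89 to 26.8. Most of the difference lay between day 0 and day 1, where wells did not overlap (0.202, 0.0643 and 0.187 CPM at day 1), but the step was not called (log2 change -2.76, SE 1.11, adjusted p = 0.073). From day 1 on its group means ran from 0.0389 CPM at day 7 to 0.677 CPM at day 20, with 1 well of day 20 at 1.92 CPM on 14 counts and another at 0 counts. Day 90 against day 0 gave -2.18 (SE 1.12) and was not called (adjusted p = 0.099), while the same comparison fitted on those 2 groups alone was (-2.16, adjusted p = 0.0050).

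ADRA1B, the α1B-adrenergic receptor (chromosome 5, 159865080 to 159972544), rose at day 3. The 3 day 1 wells had 0.0337, 0.0643 and 0.156 CPM, and the 3 day 3 wells 0.795, 1.49 and 0.830. This step was called (log2 change 3.53, SE 0.69, adjusted p = 0.00012), in a step where 17.8% of all genes were. Summed counts were 82 at day 3 and 8 at day 1, a scaled ratio of 12.1 with a 95% counting interval of 5.87 to 29. Cardiomyocyte markers summed to 55.0 to 71.3 CPM at day 1 and 52.9 to 54.5 at day 3, with 1 of 7 called, RYR2, which was lower. In the same step, smooth muscle and pericyte markers had 4 of 9 higher and 1 lower (sums of 233 to 443, then 324 to 574 CPM), and endoderm and liver markers 3 of 9 higher (16.1 to 19.1, then 119 to 148 CPM). Fibroblast and epicardial markers had 2 of 11 higher (310 to 344, then 1056 to 1338 CPM) and endothelial markers 3 of 8 (median sums of 283, then 444 CPM). Their part in the result was not tested.

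After day 3 ADRA1B changed in no called step. Its mean was 0.969 ± 0.183 CPM at day 5 (SD, n = 5), 1.19 ± 0.216 at day 9 (SD, n = 5) and 4.23 ± 1.56 at day 20 (SD, n = 3). The 3 day 20 wells had 3.11, 6.02 and 3.58 CPM, all above every day 9 well. At day 30 they were at 1.22, 0.781 and 5.46 CPM, and at day 90 at 0.896, 0.974 and 2.02. Day 9 was above day 0 by 4.04 on the log2 scale (SE 0.68, adjusted p = 5.9e-06), and day 90 by 4.16 (SE 0.72, adjusted p = 6.7e-06). The day 90 to day 9 difference was 0.12 (SE 0.50, adjusted p = 0.880). LINC01847, an antisense gene that overlaps ADRA1B, reached 1.5 CPM in 1 well of day 20 and 1.1 in 1 of day 30.

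CHRM2, the receptor through which the vagus nerve slows the heart (chromosome 7, 136868669 to 137020255), had the largest rise of the 8. Its 3 day 3 wells had 0.437, 0.484 and 0.528 CPM, and its 5 day 5 wells 21.3, 21.9, 12.8, 16.4 and 21.3. The step was called with a log2 change of 5.26 (SE 0.42, adjusted p = 1.3e-11), where 10.1% of all genes were called. At day 7 the wells had 45.4, 21.5, 35.3, 42.1 and 34.6 CPM. That further difference of 0.93 (SE 0.26, adjusted p = 0.021) was below the 2-fold limit. An antisense gene (AC009264.1) overlaps CHRM2 and did not exceed 0.83 CPM in any library.

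By day 5 CHRM2 had reached a larger share of its day 9 level than the contractile genes had, as a description of group means. Its day 5 mean was 45.4% of its day 9 mean, beside 8.37% for the cardiac troponin gene TNNT2, 2.09% for the myosin gene MYH6 and 4.29% for the 7 cardiomyocyte markers summed. For EDNRA the share was 66.4%. The sums of the other marker lists spread widely around these shares. They stood at 20.6% (endoderm and liver), 39.8% (smooth muscle and pericyte), 90.0% (neural and neural crest), 96.9% (fibroblast and epicardial), 111% (endothelial) and 281% (pluripotent). In the step from day 3 to day 5, 6 of the 7 cardiomyocyte markers were called higher, as were 5 of 11 fibroblast and epicardial markers, whose sum went from 1056 to 1338 CPM to 2826 to 4675 CPM. Endothelial markers had 4 of 8 higher and 1 lower, and endoderm and liver markers 4 of 9 higher and 1 lower. Smooth muscle and pericyte markers had 3 of 9 higher and 1 lower. The part of these marker lists in the rise of CHRM2 and EDNRA was not tested.

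From day 9 to day 30 CHRM2 changed in no called step. Its means were 41.3 ± 5.78 CPM at day 9 and 41.3 ± 3.58 at day 11 (SD, n = 5 each). They were 43.5 ± 18 at day 14, 55.4 ± 5.23 at day 20 and 47.1 ± 29.1 at day 30 (SD, n = 3 each). The day 20 wells had 52.7, 52.1 and 61.45 CPM, all above every day 9 and day 11 well. The day 30 wells stood far apart, at 53.3, 72.6 and 15.4 CPM. Day 90 wells had 92.1, 176 and 96.5 CPM, on this scale all above the wells of every other group. In TPM they had 7.10, 15.4 and 6.54 and overlapped the day 20 wells, at 5.87, 10.7 and 8.90. On the TPM scale the median of all genes shifted by -0.54 between day 9 and day 90. The rise from day 30 was called (log2 change 1.37, SE 0.33, adjusted p = 0.0075), in a step where 5.09% of all genes were. That call was lost without day 30 well 3 (0.95, adjusted p = 0.061), without day 90 well 4 (1.00, adjusted p = 0.063) and in a fit of those 2 groups alone (1.36, adjusted p = 0.523). The fit of those 2 groups called only 3 of all genes, against 1168 in the main fit. Against day 9 the rise was 1.56 (SE 0.29, adjusted p = 3.3e-05), and day 9 itself lay 7.80 above day 0 (SE 0.49, adjusted p = 9.4e-16).

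ADORA1, which slows the pacemaker and atrioventricular node when adenosine builds up (chromosome 1, 203090654 to 203167405), dipped before it rose. Day 0 wells had 2.18, 1.90 and 2.00 CPM and day 1 wells 1.08, 0.321 and 1.25, a called fall (log2 change -1.20, SE 0.38, adjusted p = 0.019) where 13.5% of all genes were called. The call was lost without day 0 well 1 (adjusted p = 0.056) or without day 1 well 2 (adjusted p = 0.151). Its lowest group was day 5, with 0.348, 0.279, 0.300, 0.739 and 0.595 CPM. The day 7 wells were all higher, at 2.19, 2.38, 2.23, 1.77 and 2.30 CPM, and the day 9 wells higher again, at 5.08, 4.28, 4.65, 5.35 and 7.52. Both steps were called, at 2.25 (SE 0.32, adjusted p = 2.7e-06) and 1.31 (SE 0.28, adjusted p = 0.0057), where 3.65% and 1.28% of all genes were.

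At day 90 the 3 ADORA1 wells had 10.9, 12.5 and 10.0 CPM, above all 5 day 9 wells. The difference of 1.05 on the log2 scale (SE 0.31, adjusted p = 0.0060) was just past the 2-fold limit. It was just short of it at 0.98 without day 9 well 10, 0.96 without day 90 well 4 and 0.93 with the sequencing lane in the model. Day 90 against day 0 gave 2.46 (SE 0.37, adjusted p = 6.8e-07).

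AGTR1, the receptor for the pressor hormone angiotensin II (chromosome 3, 148697784 to 148743008), appeared between day 5 and day 9. The day 5 wells had 0.194, 0.479, 0.214, 0.0869 and 0.260 CPM and the day 7 wells 1.03, 2.33, 1.47, 1.37 and 2.06. At day 9 they reached 6.63, 7.53, 7.20, 8.18 and 9.14 CPM, so that the 3 groups did not overlap. Both steps were called, at 2.71 (SE 0.64, adjusted p = 0.0048) and 2.22 (SE 0.55, adjusted p = 0.020). The later step lost its call without day 7 well 1, 2 or 3 (adjusted p = 0.081, 0.060 and 0.057). In the step to day 7, 6 of 7 cardiomyocyte markers were called higher. So were 5 of 9 smooth muscle and pericyte markers and 3 of 8 endothelial markers. The smooth muscle and pericyte sum went from 398 to 522 CPM at day 5 to 879 to 1576 at day 7. Of 11 fibroblast and epicardial markers 1 was lower. In the step to day 9 these lists had 1 cardiomyocyte marker called higher and 0 other calls. Endoderm and liver markers summed to 285 to 1004 CPM at day 5, 349 to 1322 at day 7 and 796 to 7258 at day 9, with 1 of 9 called higher in each step. The part of these marker lists in the rise of AGTR1 was not tested. Day 9 stood 5.48 above day 0 (SE 0.85, adjusted p = 1.4e-06) and day 90 stood 5.67 above it (SE 0.88, adjusted p = 1.0e-06).

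After day 9 AGTR1 varied more between wells of 1 day than any other of the 8 at days 30 and 90, except for ADRA1A at day 30, which had a well at 0. At day 14 it was 3.12, 2.73 and 9.92 CPM, at day 20 it was 2.65, 0.821 and 7.38, and at day 30 it was 0.692, 0.156 and 2.45. The day 90 wells had 16.0, 9.53 and 0.952 CPM, a 16.8-fold range. Day 90 was called above day 30 (log2 change 2.95, SE 0.74, adjusted p = 0.0096) although the groups overlapped. This call was lost without day 90 well 2 (2.19, adjusted p = 0.080) and in a fit of the 2 groups alone (2.96, adjusted p = 0.480), which called only 3 of all genes. Its day 90 to day 9 difference was 0.19 (SE 0.60, adjusted p = 0.831), and -0.57 without day 90 well 2.

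EDNRA, the endothelin receptor of muscle cells (chromosome 4, 147480917 to 147544954), rose in the same step as CHRM2. Its day 3 wells had 6.64, 5.55 and 5.13 CPM and its day 5 wells 54.5, 45.0, 29.5, 42.7 and 49.2, a log2 change of 2.94 (SE 0.28, adjusted p = 4.3e-10). AC093908.1, a gene on the same strand inside EDNRA with which it could share reads, went from 0.560 ± 0.0708 CPM (SD, n = 3) to 3.57 ± 0.538 (SD, n = 5) in this step and was highest at day 20, at 6.46 to 26.9 CPM. At day 7 the wells had 110, 91.9, 80.7, 67.0 and 82.8 CPM, all above day 5, and the difference of 0.97 (SE 0.21, adjusted p = 0.0019) was just short of 2-fold. Means from day 9 to day 30 lay between 47.5 and 70.9 CPM with no called step. The day 90 wells had 168, 68.3 and 113 CPM. This was 0.81 above day 9 (SE 0.23, adjusted p = 0.0054), short of the 2-fold limit, and 1.08 (adjusted p = 0.00048) without day 90 well 4. Against day 0, day 9 was higher by 4.02 (SE 0.29, adjusted p = 6.5e-14) and day 90 by 4.83 (SE 0.32, adjusted p = 1.8e-15).

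EDNRB (chromosome 13, 77895481 to 77975529, minus strand) was highest in the early groups. Its pluripotent wells had 9.56, 9.53 and 8.60 CPM and its day 0 wells, with the added laminin LN-221, 59.2, 58.9 and 67.4. This rise of 2.74 (SE 0.34, adjusted p = 3.0e-06) was the only call among the 8 in a step where 2.91% of all genes were called. Laminin, confluence and time in culture differ together between these groups and cannot be told apart. Day 1 wells fell to 23.8, 35.9 and 23.3 CPM (log2 change -1.16, SE 0.32, adjusted p = 0.0080), and day 3 wells had 47.4, 44.2 and 47.5.

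After day 3 no EDNRB step was called. Its means were 31 ± 3.24 CPM at day 5 and 15.7 ± 4.60 at day 9 (SD, n = 5 each), 10.4 ± 1.88 at day 14, 14.7 ± 1.57 at day 20 and 7.01 ± 2.48 at day 90 (SD, n = 3 each), with all 3 day 20 wells above all 3 day 14 wells. The day 90 wells had 9.05, 4.24 and 7.73 CPM, all below the day 9 wells at 14.3, 19.5, 21.5, 10.5 and 12.8. The log2 change was -1.98 between day 0 and day 9 (SE 0.28, adjusted p = 3.1e-07) and -1.16 between day 9 and day 90 (SE 0.31, adjusted p = 0.0027). Without day 90 well 4 the latter was -0.90 (adjusted p = 0.036), short of the 2-fold limit. Over the same interval all 8 endothelial markers fell, from sums of 394 to 621 CPM to 57.6 to 215. The 8 neural and neural crest markers summed to 37.6 to 54.6 CPM at day 9 and 18 to 39.8 at day 90. Of these 8, 0 were called, and their median log2 change was 0.47. Only 3 of them reached 1 CPM in any well of either day. The part of either marker list in the fall of EDNRB was not tested.

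Few changes were called in the late steps, for these receptors and for all genes. Of all genes, 1.63% were called at day 11 against day 9 and 0.697% at day 14 against day 11. The shares were 0.0479% at day 20 against day 14 and 2.02% at day 30 against day 20. In these 4 steps edgeR's quasi-likelihood test called 0 of 32 receptor changes, as did DESeq2 and limma, and 5 of the 32 had an unadjusted p under 0.05. Days 14, 20 and 30 held the libraries of lowest depth or RNA integrity. ADRB1 differed by 20.9-fold among the day 20 wells and AGTR1 by 15.7-fold among the day 30 wells. Such spread limits what could be called, so the lack of calls does not show that levels stayed the same.

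Wells of 1 late day differed together in several receptors. In day 11 wells 1, 2, 5, 6 and 7, ADORA1 was 3.48, 3.74, 9.50, 10.4 and 9.74 CPM and ADRA1B 0.715, 0.646, 1.80, 1.91 and 2.45. AGTR1 ran the opposite way, at 4.87, 7.10, 2.00, 2.54 and 1.62 CPM, while CHRM2 stayed between 37.8 and 46.3 in all 5. In the same order the cardiomyocyte markers summed to 7431, 4817, 19552, 19518 and 18071 CPM, the endoderm and liver markers to 5476, 9948, 369, 373 and 296, and the RNA integrity number was 8.6, 8.0, 9.5, 9.2 and 9.4. Wells 1 and 2 thus had the lower ADORA1 and ADRA1B, the higher AGTR1, the lower cardiomyocyte sums and integrity numbers and the higher endoderm and liver sums. The part of cell makeup and RNA quality in these values was not tested.

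Day 90 wells 2, 4 and 5 also stood apart. Cardiomyocyte markers summed to 15442, 53057 and 20057 CPM and the 11 fibroblast and epicardial markers to 15585, 2526 and 8292. ADRB1 and CHRM2 were highest in well 4, and EDNRA and EDNRB were lowest there. ADORA1 differed by only 1.25-fold between the highest and lowest of the 3 wells. How much of each receptor's level followed these markers was not tested.

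Levels of different genes were compared on the TPM scale, which accounts for transcript length. EDNRB was the highest of the 8 in every library from the pluripotent state to day 3, at 17.6 ± 2.28 TPM on day 0 (SD, n = 3). On day 5 EDNRA (7.99 ± 2.92 TPM) led in 3 of 5 wells and EDNRB (7.02 ± 1.43 TPM) in 2 (SD, n = 5 each). From day 7 EDNRA had the highest mean and CHRM2 the next, at 9.27 ± 4.47 and 5.24 ± 2.94 TPM on day 9 (SD, n = 5 each). At day 90 they were at 9.78 ± 3.27 and 9.68 ± 4.96 TPM (SD, n = 3 each), and CHRM2 led in 1 of the 3 wells. ADRB1 was at 0.337 ± 0.367 TPM on day 90 and ADRA1A at 0.0400 ± 0.0346 (SD, n = 3 each).

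**Figure D3:**
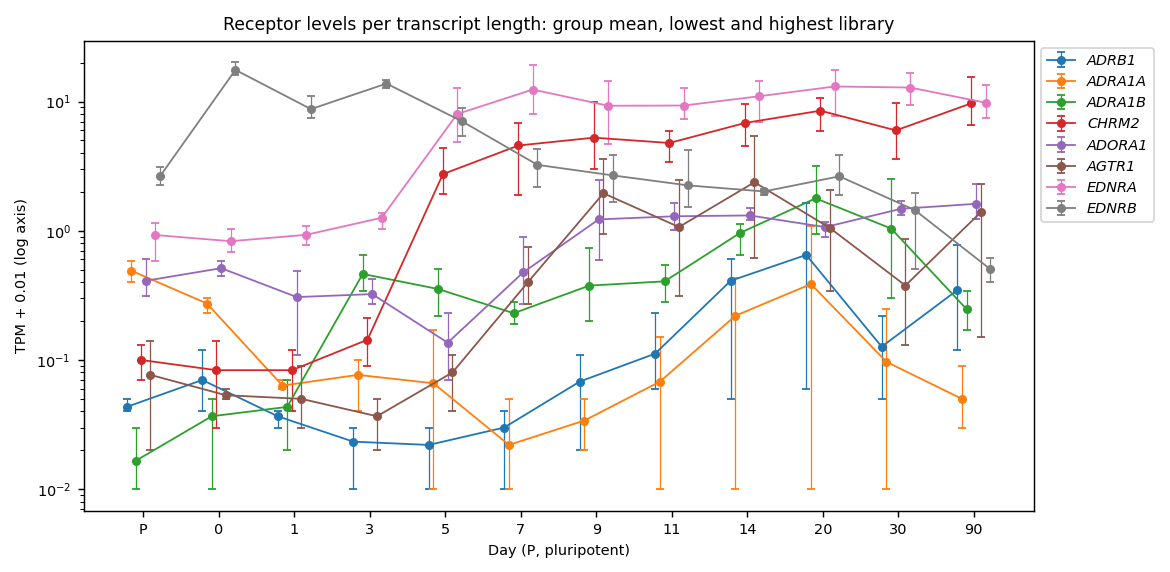
Mean TPM of each receptor gene by day on a log axis, with 0.01 added; whiskers run from the lowest to the highest library. EDNRB is the top line until day 3, EDNRA from day 5, and CHRM2 meets EDNRA at day 90 near 10 TPM.

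Ratios of 2 receptors within a library were compared between day 90 and day 9 on log2(TPM + 0.1), where the added 0.1 raises a low gene more, in proportion, than a high one. EDNRA over EDNRB moved from 1.67 ± 0.65 (SD, n = 5) to 4.03 ± 0.21 (SD, n = 3), a difference of 2.36, with all 3 day 90 wells above all 5 day 9 wells. The two-sided exact permutation p was 0.0357, the smallest that 5 against 3 wells allow, and 0.0536 after adjustment over the 3 ratios tested. ADRB1 over CHRM2 differed by 0.26 (exact permutation p = 0.607), and was 1.09 with 0.01 added in place of 0.1 and -0.49 with 1 added, so its direction depends on the value added.

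**Figure D4:**
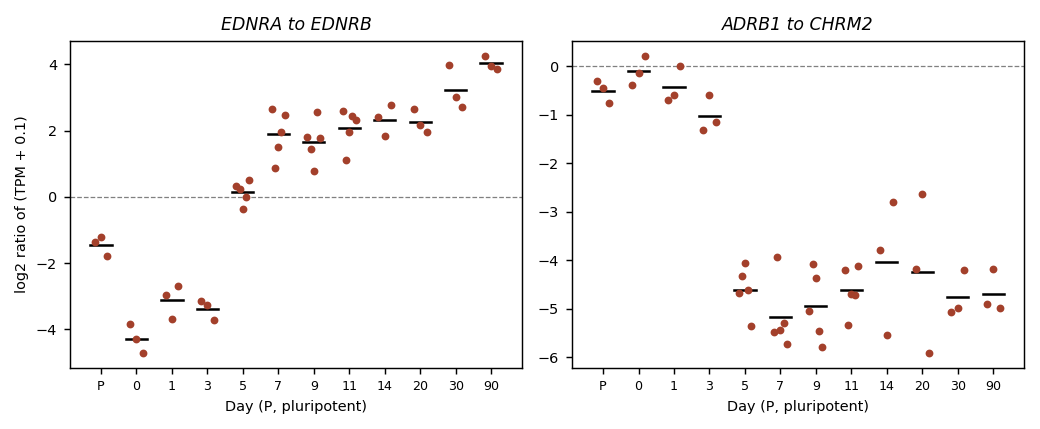
Log2 ratio of (TPM + 0.1) for 2 receptor pairs in every library (points) with group means (bars); the dashed line marks equal levels. EDNRA to EDNRB crosses that line at day 5.

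Of the other receptors of these families, 14 of 15 were in the table and 13 were tested. Day 9 against day 0 had 3 higher and 3 lower, with a list median of 0.55 on the log2 scale. Of all genes 17.1% were higher and 14.6% lower (median 0.079). ADRB3, the β3-receptor, rose by 4.18 (SE 0.92, adjusted p = 0.00027) from 5 summed counts, and ADRA2B, an inhibitory α2-receptor, by 1.57 (SE 0.50, adjusted p = 0.0086). ADRA2A fell by 2.43, the Gq-coupled CHRM3 by 1.86 and CHRM4 by 1.84. From day 9 to day 90 there were 2 higher and 2 lower, with a median of -0.16 (all genes: 11.9% higher, 12% lower, median -0.019). CHRM4 rose by 1.91 (SE 0.72, adjusted p = 0.033), while ADRA2C fell by 1.84 and ADORA2A, a Gs-coupled adenosine receptor, by 1.01.

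Downstream of the receptors, all 41 G proteins and effectors were tested, with 13 higher and 6 lower at day 9 against day 0 (median 0.41). The shares over all genes were 17.1% higher and 14.6% lower. Both subunits of the potassium channel opened by M2 and A1 receptors were among the largest rises. KCNJ5 went from 0.224 ± 0.124 to 35.0 ± 10.3 CPM (log2 change 7.25, SE 0.73, adjusted p = 1.8e-10) and KCNJ3 from 0.564 ± 0.180 to 11.6 ± 7.20 CPM (4.35, SE 0.59, adjusted p = 1.3e-07) (SD, n = 3 and 5). Phospholipase PLCE1 rose by 5.01, while the adenylyl cyclases ADCY2 and ADCY8 fell by 6.18 and 2.08 and phospholipase PLCB3 by 2.03. Day 90 against day 9 had 8 higher and 7 lower (median 0.23), beside 11.9% higher and 12% lower of all genes. ADCY5, a main adenylyl cyclase of heart muscle, went from 21.5 ± 9.64 to 195 ± 108 CPM (log2 change 3.18, SE 0.33, adjusted p = 6.8e-10), and the cyclic AMP sensor RAPGEF4 rose by 4.33 and the phosphodiesterase PDE4B by 2.04. ADCY4 fell by 3.29, ADCY7 by 1.53 and GNAL by 1.45.

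The 19 receptor kinases, arrestins, anchoring proteins and RGS proteins switch receptor signals off or place them. Of these 19, 8 were higher and 2 lower at day 9 against day 0 (median 0.36), beside 17.1% and 14.6% of all genes. RGS4 rose by 6.01, the receptor kinase GRK5 by 3.19 and the anchoring protein AKAP6 by 2.88. RGS7 fell by 6.11, from 210 summed counts to 4 (a scaled ratio of 80.2, 95% counting interval 30.8 to 297), and the arrestin ARRB2 by 1.10. At day 90 against day 9 there were 1 higher and 5 lower (median -0.30), beside 11.9% and 12% of all genes. AKAP6 rose again, from 10.0 ± 6.24 (SD, n = 5) to 173 ± 62.5 CPM (SD, n = 3), while RGS16 fell by 2.75, AKAP12 by 2.09 and RGS4 by 1.90.

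Of 31 genes for the ligands and their synthesis or breakdown 29 were tested. At day 9 against day 0, 12 were higher and 3 lower (median 1.19), beside 17.1% and 14.6% of all genes. AGT, the angiotensin precursor, was at 0.247 ± 0.0473 CPM on day 0 (SD, n = 3) and 33.1 ± 41.3 CPM on day 9 (SD, n = 5), and its rise of 7.04 was called (SE 0.95, adjusted p = 1.1e-07). DDC, an enzyme of catecholamine synthesis, rose by 5.84, from 14 summed counts to 1308 (a scaled ratio of 61.2, 95% counting interval 36.3 to 112). SLC29A1, which carries adenosine into cells, fell by 1.91, ECE2 by 1.65 and the peptidase MME by 1.36. Endoderm and liver markers also moved, with 9 of 9 higher at day 9 and sums from 796 to 7258 CPM among its wells, against 3.93 to 11.8 at day 0. Their part in the rises of AGT and DDC was not tested.

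Day 90 against day 9 had 7 of the 29 ligand genes higher and 9 lower (median -0.57), beside 11.9% and 12% of all genes. The endothelin genes EDN2 and EDN3 rose by 4.38 and 3.51, and BCHE, a cholinesterase, by 3.45 from 6.44 ± 2.93 (SD, n = 5) to 70.2 ± 62.6 CPM (SD, n = 3). DDC fell by 6.58, from 1308 summed counts to 5 (a scaled ratio of 105, 95% counting interval 45.0 to 324). NT5E, which makes adenosine outside the cell, fell by 3.10. Of the endoderm and liver markers 8 of 9 were lower in the same comparison.

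The likest genes over all 44 libraries were taken by Pearson r of log2 CPM among 13797 protein-coding genes. For CHRM2 they were the myosin chaperone gene UNC45B (r = 0.98) and the muscle methyltransferase gene SMYD1 (r = 0.97), and for EDNRA they were UNC45B (r = 0.98) and CHRM2 itself (r = 0.97). ADORA1 was likest to COX6A2, a muscle form of a respiratory subunit, and to ESRRB (r = 0.93 each). AGTR1 was likest to ALDH1A1 and GALNT5 (r = 0.88 each), ADRA1B to IRX5 (r = 0.93) and RILPL1 (r = 0.91), and ADRA1A to the neuronal genes NRXN2 (r = 0.91) and SYP (r = 0.90). The lowest values were those of ADRB1, with LRRC14B and MGLL (r = 0.82 each), and of EDNRB, with VENTX (r = 0.78) and ZNF43 (r = 0.77). These are descriptions over libraries that share days, depth and cell makeup.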

How the data were processed

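Per the submitters' processing notes, reads were handled with cutadapt, STAR 2.5.2b and RSEM 1.2.31 against hg38. The annotation and the use of strand in counting are not given in the sources used here, so overlapping or antisense genes could share reads. Gene-level estimated counts without scaling were deposited by the authors (93.8% whole numbers). The authors also deposited TPM, scaled by length and to a fixed sum, and for each library an RNA integrity number, a score, and its sequencing lane (5 lanes). The sample sheet also gives a sequencing batch, which was not used here.

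Counts were rounded. The filter filterByExpr left 22955 genes, and edgeR 4.0.16 (R 4.3.3) with TMM scaling fitted 1 mean per group to all 44 libraries by quasi-likelihood. Adjusted p values are Benjamini-Hochberg over all 22955 genes, and a gene was called when it was under 0.05 with a log2 change of at least 1. CPM are TMM-scaled counts per 1000000. The fit was also run on simulated data in which few genes changed, in 1 group only. Changes in these data are far wider, so that run does not measure errors of the calls made here. Symbols and coordinates are from GENCODE 29 (56769 identifiers matched). Intervals of ratios are exact (Clopper-Pearson) at 95%. No 2 libraries were identical. Of 3 ratios tested 1, and some genes of the lists, are not reported here.

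The members, lists and tests were chosen with earlier results of these data known. Every member is named, and of each list up to 3 called genes with the largest rise and up to 3 with the largest fall in 2 comparisons. Alternatives used RLE scaling, other filters, DESeq2 1.42.0, limma 3.58.1 on log2 TPM, lane, block, quality and depth limits, and left-out wells.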

Additional observations from a re-analysis of the deposited data

How the results depend on the processing

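Of 664 values of 36 single receptor results under the alternatives, 601 kept their direction and side of the threshold, 48 lost a call, 3 gained one and 12 changed sign, each of the 12 in a result that was not called. For day 9 against day 0 the 7 calls became 4 with limma on log2(TPM + 1). For day 90 against day 9 the 4 calls became 2 with the replicate block (EDNRB at -0.97 and ADORA1 at 0.90 came short of 2-fold), 1 with limma on log2(TPM + 0.1) and 1 on log2(TPM + 1), and ranged from 2 to 4 with a well left out (2 without day 90 well 4). For day 90 against day 0 the 7 calls became 4 with limma on log2(TPM + 1) and were 6 to 7 with a well left out. The 12 step calls became 7 and 3 with limma at the 2 pseudocounts and were 11 to 14 with a well left out. TPM moved the median of all genes by -0.38, -0.54 and -0.93 in the 3 long comparisons, in the same order, so TPM changes are read relative to that. At a pseudocount of 1 the ADRB1 to CHRM2 ratio difference was -0.49.

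Signs differed for ADRB1 at day 9 against day 0, with -0.34 under the replicate block, -0.014 and -0.0025 with limma, -0.090 without day 0 well 1 and -0.29 without day 9 well 10 (range with a well left out -0.29 to 1.01). They differed for AGTR1 at day 90 against day 9, with -0.83 and -0.36 with limma and -0.57 without day 90 well 2 (range -0.57 to 0.72). ADRA1B at day 90 against day 9 gave -0.26 under the block, -0.38 and -0.13 with limma and -0.35 without day 90 well 5 (range -0.35 to 0.33). The ADRB1 and ADRA1B values with limma on log2(TPM + 0.1), -0.014 and -0.38, lie above the shift of all genes. Mean TPM was 0.06 at day 0 and 0.058 at day 9 for ADRB1. For ADRA1B it was 0.366 at day 9 and 0.237 at day 90. Beside such levels the added 0.1 pulls changes towards 0, so this cannot show whether they turned relative to the shift. All genes called numbered 3788 and 2819 with limma on log2(TPM + 1), against 7278 and 5485, for day 9 against day 0 and day 90 against day 9. The cause was not tested. Wells share only a replicate number: correlations of same-numbered deviations ran from 0.055 to 0.454 in the 5 pairs of day 9 against day 7 and were 0.553 and 0.611 in the 2 of day 20 against day 14, and 4 of those 5 wells correlated best with their own number. Under the replicate block the step calls were 15. Levels of ADRB1 before day 11 and of ADRA1A after day 0 rest on few counts, and depth limits what can be seen there.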

Other observations

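AGTR2, the other angiotensin II receptor, was chosen after its values were seen. It was not tested, because too few libraries had enough counts of it to pass the filter. It had at most 4 counts in each of the 41 libraries outside day 90. At day 90, well 2 had 403 counts (18.1 CPM), well 5 had 162 (9.08 CPM) and well 4 had 0. The summed fibroblast and epicardial markers were 15585, 8292 and 2526 CPM in these wells, in the same order, and the AGTR1 levels 16.0, 0.952 and 9.53 CPM. The part of cell makeup in the AGTR2 level was not tested.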
